A study of Mus musculus with 768 samples.

Results

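The 9 genes described here encode proteins of non-compact myelin and of the junctions that Schwann cells form with themselves and with axons: Mag, Cldn19, Gjb1, Gjc3, Cdh1, Cadm4, Nfasc, Tjp1 and Mpp6. They were chosen by name, as well-known components of these structures, while earlier results of these data were known. They are 9 of the 25700 genes in the count table. RNA of individual Schwann cells, taken from sciatic nerve at postnatal day 5 (P5), was sequenced with Smart-Seq2, a full-length method without molecular identifiers, on 2 plates of 384 wells with 1 cell per well. All mice carried P0Cre, the ReYFP reporter and βAct-DsRed on a C57BL/6J background, so that a Cre active in the Schwann cell lineage turned on eYFP and DsRed marked every cell, and there was no treated or mutant group. The 2 plates are the biological replicates. Each holds eYFP-positive cells pooled from male and female mice in equal parts, so animals within a plate cannot be told apart. Of the 768 wells, 655 (325 and 330 per plate) had 1500 or more detected genes and lay outside the 4 corners, and these retained cells were placed in 4 states by rule. Cells with 5 or more reads in at least 3 of 10 cell cycle genes were called cycling (57 cells). The others were called immature where Ncmap, which encodes a non-compact myelin-associated protein, was under 10 CPM, or counts per 1000000 reads (228 cells), intermediate where Ncmap passed this limit but Pmp22 was under 30000 CPM (149 cells), and myelinating above it (221 cells). None of the 9 genes takes part in this rule, so their levels could be tested between the states, but Ncmap, which divides immature from intermediate cells, belongs by name to the same class of genes.

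Compact myelin is the part of the sheath from which cytoplasm is excluded. Non-compact myelin comprises the channels in which cytoplasm persists: the membrane facing the axon, the paranodal loops beside each node of Ranvier, and the Schmidt-Lanterman incisures that cross the sheath. In these channels a Schwann cell joins its own layers by tight, adherens and gap junctions, and holds the axon by adhesion proteins. Mag and Cadm4 are adhesion proteins of the membrane facing the axon, and the glial form of neurofascin, from Nfasc, anchors the paranodal loops. Cldn19 forms the strands of Schwann cell tight junctions and Tjp1 (ZO-1) is a scaffold under them. Gjb1 encodes connexin Cx32, the gene of X-linked Charcot-Marie-Tooth disease, and Gjc3 encodes connexin Cx29. Cdh1 is E-cadherin, which joins the turns of the same cell, and Mpp6 is a membrane guanylate kinase scaffold found with Cadm4 at the incisures.

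The genes lie apart in the genome (GRCm38): Mag at chr7:30899176-30914873 on the minus strand, Cldn19 at chr4:119255414-119262438 on the plus strand, Gjb1 at chrX:101376378-101385629 on the plus strand, Gjc3 at chr5:137953461-137963098 on the minus strand, Cdh1 at chr8:106603351-106670246 on the plus strand, Cadm4 at chr7:24482023-24504539 on the plus strand, Nfasc at chr1:132564690-132741797 on the minus strand, Tjp1 at chr7:65296165-65527781 on the minus strand and Mpp6 at chr6:50110241-50198939 on the plus strand. RefSeq promoter windows of 300 bases (250 before to 50 after a transcript start, GRCm38.p6) were found for 8 of the 9, with 16 windows in all, and none for Cdh1. The windows were searched on both strands for short motifs of factors known in Schwann cells, namely ACAAAG and ACAATG (SOX), GGAATG (TEAD) and GCGNGGGCG (EGR). Shown are 1 window each for Mag, Gjb1 and Mpp6, the 3 genes with ACAAAG in a window, all of which rose from the immature to the myelinating state, and the window of Cadm4, which did not pass the test in any comparison. They were picked for these matches. Motif letters are in capitals, and each line reads 5′ to 3′ on the strand of the gene.
Mag, chr7:30914814-30915113, minus strand: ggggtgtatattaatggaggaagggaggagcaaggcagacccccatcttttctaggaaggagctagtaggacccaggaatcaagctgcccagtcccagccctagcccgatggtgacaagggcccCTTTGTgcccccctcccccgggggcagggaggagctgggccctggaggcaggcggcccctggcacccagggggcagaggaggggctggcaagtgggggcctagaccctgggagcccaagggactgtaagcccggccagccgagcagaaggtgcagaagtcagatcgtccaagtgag
Gjb1, chrX:101383482-101383781, plus strand: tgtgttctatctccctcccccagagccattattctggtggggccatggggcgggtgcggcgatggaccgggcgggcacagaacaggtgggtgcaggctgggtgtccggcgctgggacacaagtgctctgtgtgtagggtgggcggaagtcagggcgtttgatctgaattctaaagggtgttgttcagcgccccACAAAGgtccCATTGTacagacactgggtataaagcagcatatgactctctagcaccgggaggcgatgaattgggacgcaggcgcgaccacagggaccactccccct
Mpp6, chr6:50109991-50110290, plus strand: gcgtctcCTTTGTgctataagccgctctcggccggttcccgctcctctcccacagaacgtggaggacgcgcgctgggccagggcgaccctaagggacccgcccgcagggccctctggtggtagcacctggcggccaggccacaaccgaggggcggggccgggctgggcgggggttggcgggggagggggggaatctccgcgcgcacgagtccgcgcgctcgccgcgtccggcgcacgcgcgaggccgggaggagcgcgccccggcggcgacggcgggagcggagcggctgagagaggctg
Cadm4, chr7:24481773-24482072, plus strand: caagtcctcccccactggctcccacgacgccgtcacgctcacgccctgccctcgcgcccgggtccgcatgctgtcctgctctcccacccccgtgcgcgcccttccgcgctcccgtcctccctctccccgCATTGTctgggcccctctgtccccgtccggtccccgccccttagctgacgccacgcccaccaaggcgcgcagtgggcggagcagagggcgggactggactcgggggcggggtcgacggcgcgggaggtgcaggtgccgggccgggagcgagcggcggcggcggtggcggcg
The Mag window held ACAAAG on the opposite strand at position -126, counted from the transcript start. The Gjb1 window, which is the most downstream of the 4 starts of this gene, held ACAAAG at -57 and, on the opposite strand, ACAATG at -47, and these 2 motifs did not overlap. In the Mpp6 window ACAAAG stood on the opposite strand at -243, and in the Cadm4 window ACAATG stood on the opposite strand at -121. ACAAAG was in 5 of the 16 windows of these genes (31.2%) and in 18.7% of all 32851 windows of the table. The corresponding shares were 12.5% and 12.6% for ACAATG, 18.8% and 14.7% for GGAATG, and 12.5% and 5.55% for GCGNGGGCG. Windows of a gene can overlap. The Mag windows starting at 30914814 and 30914873 hold the same ACAAAG site, at -126 and -67. That site is therefore counted in both windows among the 5. Neither window of Cldn19 nor the single window of Gjc3 held any of the 4 motifs. Neither window of Nfasc held ACAAAG. Cldn19, Gjc3 and Nfasc also rose from the immature to the myelinating state. Reads were counted per gene, so the start used in these cells, and the forms of Mag and Nfasc that differ by splicing, could not be told apart.

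The retained wells held a median of 593534 and 559286 reads per cell on the 2 plates, and reads summed per plate and state ranged from 13925435 to 98479212. Myelinating cells were the deepest, with medians of 819462 and 719230 reads against 476354 and 418998 in immature cells, so shares of cells with a gene are given also after each cell was thinned to 100000 reads. At least 3 of 6 general Schwann cell markers were present in 637 of the 655 cells. At least 3 of 6 markers of the immature Schwann cell (Ngfr, Ncam1, L1cam, Sox2, Gfap and Jun) were present in 113 immature and 40 cycling cells, but in only 9 intermediate and 2 myelinating cells. Lists for fibroblast-like, epithelial, endothelial, immune, pericyte, neuronal and muscle cells were met by 0 of 655 cells, which allows a share of up to 0.458%, and the perineurial list by 4 cells, all intermediate, with a summed level of 56.7 to 140 CPM in the 8 sums. Junction genes such as Cdh1 are best known from epithelia, and of the 6 epithelial markers Epcam, Krt8, Krt18 and Krt5 had 0 reads, Krt14 had 1 read, and Esrp1 accounted for the rest of the list's 0 to 21.2 CPM. Each well is a library of its own, so no cell barcodes were shared between plates.

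From the immature to the myelinating state 7 of the 9 genes rose (Mag, Cldn19, Gjb1, Gjc3, Cdh1, Nfasc and Mpp6) and none fell, whereas over all 13904 genes tested 2.60% rose and 2.54% fell. Cadm4 and Tjp1 were the exceptions. The median log2 change was 2.19 over the 9 genes and -0.04 over all genes tested. In intermediate against immature cells 6 genes rose and none fell (median log2 change 1.79), with 0.985% of all genes called higher and 1.01% lower. In myelinating against intermediate cells none of the 9 passed the threshold with edgeR (median 0.74), where 0.360% of all genes were called higher and 0.424% lower. In this last step 3 of the 9 genes had an unadjusted p under 0.05, all higher, and DESeq2 called 1 of them, Nfasc. Over all genes, 1301 of 13904 had an unadjusted edgeR p under 0.05 there in either direction. DESeq2 called 373 of 13624 higher in the same step. In cycling against immature cells 3 genes fell (Cldn19, Gjb1 and Cdh1) and none rose, with 1.29% of all genes called in each direction. No gene of the 9 had an unadjusted p under 0.05 or a DESeq2 call in the direction opposite to these counts.

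These tests compared reads summed per plate and state with edgeR's quasi-likelihood test over n = 2 plates per state, with Benjamini-Hochberg adjustment over all genes tested and a threshold of 0.05. The fitted log2 changes include TMM scaling, which raised them above the plain CPM ratio by 0.14 for intermediate against immature, 0.25 for myelinating against intermediate, 0.38 for myelinating against immature and 0.10 for cycling against immature cells. In the cycling comparison the median of all genes lay at -0.13, or -0.26 with library sizes taken without the 50 most abundant genes, against a median of -0.95 for the 9 genes. The sums of all 9 genes were 1601 and 1572 CPM in immature, 4578 and 4124 CPM in intermediate and 4765 and 4867 CPM in myelinating cells.

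**Figure D1:**
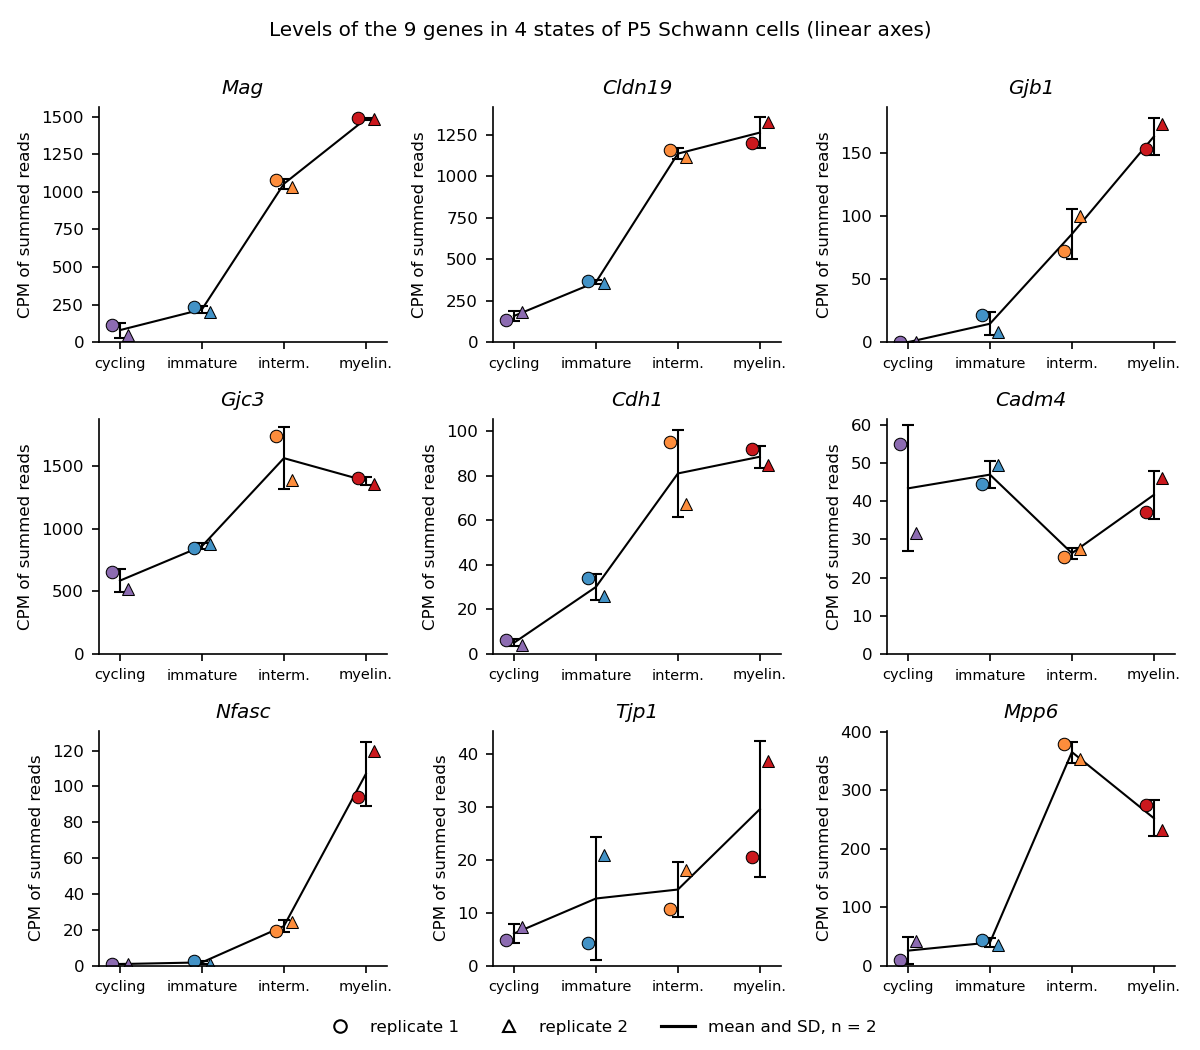
Level of each of the 9 genes in CPM of reads summed per plate and state, on linear axes, against the 4 states; circles are replicate 1, triangles replicate 2, and the line with bars is the mean and SD of both. Mag, Cldn19, Gjb1, Gjc3 and Mpp6 stepped up between immature and intermediate cells, Nfasc had its highest level in myelinating cells (94.2 and 120 CPM), and Cadm4 stayed between 25.4 and 55.1 CPM throughout.

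Mag, which binds gangliosides on the axon, stood at 234 and 201 CPM in immature cells of the 2 plates, at 1077 and 1032 CPM in intermediate cells and at 1490 and 1482 CPM in myelinating cells. The plates lay close together and the 3 states did not overlap. The log2 change was 2.41 ± 0.350 (SE; 5.33-fold; edgeR adjusted p = 0.0105) from immature to intermediate cells and 3.15 ± 0.361 (8.90-fold; edgeR adjusted p = 0.00124) from immature to myelinating cells. From intermediate to myelinating cells the log2 change was 0.74 ± 0.334, with an edgeR adjusted p of 0.544. Cycling cells had 115 and 45.4 CPM, below both immature values. This difference was not called (log2 change -1.34 ± 0.340, edgeR adjusted p = 0.0880), but it passed with DESeq2 (adjusted p = 0.00344) and in 2 of the other 15 alternative fits.

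Nfasc had the largest log2 change of the 9 genes from the immature to the myelinating state. Its levels were 2.47 and 1.18 CPM in immature cells, 19.6 and 24.6 CPM in intermediate cells and 94.2 and 120 CPM in myelinating cells. The low values in immature cells came from few cells, as 7 of 228 had 5 or more reads. The log2 change from immature to myelinating cells was 6.26 ± 0.578 (76.4-fold; edgeR adjusted p = 0.000373), and that from immature to intermediate cells was 3.73 ± 0.514 (13.3-fold; edgeR adjusted p = 0.00811). The rise from intermediate to myelinating cells was 2.52 ± 0.485 on the log2 scale (5.75-fold) and higher on both plates, but missed the threshold with edgeR (adjusted p = 0.0684). This last step passed in 4 of 16 alternative fits. These were DESeq2 (adjusted p = 1.17e-05) and, with edgeR, no filter on low counts (0.00416), thinned cells (0.0243) and the Pmp22 limit at 20000 CPM (0.0269). It did not pass with the Pmp22 limit at 40000 CPM (log2 change 1.57, edgeR adjusted p = 0.257) or with the plate as a block (0.101). With the limit at 20000 CPM the first step was no longer called (log2 change 2.39, edgeR adjusted p = 0.102).

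Cadm4, which binds Cadm proteins of the axon, passed in none of the 4 comparisons. It stood at 55.1 and 31.7 CPM in cycling cells, 44.5 and 49.4 CPM in immature cells, 25.4 and 27.5 CPM in intermediate cells and 37.3 and 46.1 CPM in myelinating cells. The intermediate values were the lowest and the other 3 states overlapped. The edgeR adjusted p lay between 0.546 and 1. The fitted log2 change from immature to myelinating cells was 0.21 ± 0.408, whereas the plain log2 CPM ratios of the plates, with 0.5 CPM added to each value, were -0.25 and -0.10. Its direction therefore depended on the scaling.

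Of its relatives, Cadm1, an adhesion protein with a broad range of tissues, fell from 564 and 699 CPM in immature cells to 152 and 114 CPM in intermediate and 35.3 and 31.1 CPM in myelinating cells. Each step passed (log2 change -2.10 ± 0.219, edgeR adjusted p = 0.00184, and -1.76 ± 0.217, edgeR adjusted p = 0.00833), and cycling cells had 595 and 682 CPM. Cadm3, known mainly from axons as the partner of Cadm4, moved the other way. It was nearly absent from immature cells (0.0741 and 0.0167 CPM), reached 4.14 and 5.86 CPM in intermediate cells and 32.5 and 32.3 CPM in myelinating cells, and passed against immature cells in both (edgeR adjusted p = 0.0310 and 0.00506). Cadm2 stayed at 12.9 CPM or less. Per kilobase of exon, Cadm4 was 24.6% of the 4 Cadm genes in cycling cells (30.8% and 18.3% on the 2 plates), 26.4% in immature cells (27.3% and 25.4%), 47.1% in intermediate cells (43% and 51.2%) and 68.7% in myelinating cells (66.5% and 70.9%), while its own level per kilobase in immature, intermediate and myelinating cells was 21.7, 12.2 and 19.3 RPKM, which is CPM divided by the exon length in kilobases.

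Cldn19, the claudin of Schwann cell tight junctions, went from 371 and 354 CPM in immature cells to 1161 and 1114 CPM in intermediate and 1199 and 1330 CPM in myelinating cells. The step to the intermediate state was 1.79 ± 0.173 on the log2 scale (3.46-fold; edgeR adjusted p = 0.00123) and passed in all 16 alternative fits. The next step of 0.40 ± 0.168 did not pass (edgeR adjusted p = 0.508), and the highest intermediate and lowest myelinating values were 1161 and 1199 CPM. Cycling cells had less than immature cells (136 and 181 CPM; log2 change -1.09 ± 0.170, 2.13-fold lower, edgeR adjusted p = 0.0149).

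Among the other claudins tested, Cldn11, the claudin of central myelin and of the testis, was the one that changed between the immature and the myelinating state. It had 50.4 and 76.0 CPM in cycling cells and 29.3 and 44.2 CPM in immature cells, but 0 and 0.432 CPM in intermediate cells and 0.0305 and 0.355 CPM in myelinating cells (myelinating against immature, edgeR adjusted p = 0.0368). Per kilobase of exon, Cldn19 was 49.5% of all 33 claudins in cycling cells, 68.5% in immature, 88.7% in intermediate and 95.3% in myelinating cells, and Cldn11 was 44.6%, 15.8%, 0.0377% and 0.0321%. Cldn5, a marker of endothelium, took 10% in intermediate cells of plate 2 and 0% in those of plate 1, where the summed endothelial list stood at 43.5 and 0 CPM.

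Tjp1 differed between the plates in each state. In immature cells it stood at 4.36 CPM on plate 1 and 21 CPM on plate 2, in intermediate cells at 10.7 and 18.1 CPM and in myelinating cells at 20.6 and 38.7 CPM. Plate 2 was higher in all 4 states, cycling cells included (4.83 and 7.32 CPM), and immature and intermediate cells overlapped. The change from immature to myelinating cells was 1.61 ± 0.866 on the log2 scale and did not pass (edgeR adjusted p = 0.430). In all, 24 of the 51 other tight junction genes listed could be tested, and 2 rose, Marveld3 among them, and 1 fell (Cldn11) between immature and myelinating cells. Marveld3, a tight junction membrane protein, was at 0 CPM in immature and at a mean of 16.8 CPM in myelinating cells.

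Gjc3, the connexin of the membrane next to the axon, was present in 90.8% to 100% of the cells of each state. Its levels were 651 and 520 CPM in cycling, 845 and 877 CPM in immature, 1741 and 1389 CPM in intermediate and 1405 and 1361 CPM in myelinating cells. It rose 2.00-fold from immature to intermediate cells (log2 change 1.00 ± 0.162, edgeR adjusted p = 0.0171) and 2.10-fold from immature to myelinating cells (1.07 ± 0.162, edgeR adjusted p = 0.00569). Intermediate and myelinating cells overlapped, with a fitted log2 change of 0.06 ± 0.161 (edgeR adjusted p = 0.994) and plain log2 CPM ratios of -0.31 and -0.03 on the plates, so that its direction depended on the scaling.

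Gjb1 had 0 reads in all 57 cycling cells, 21.2 and 8.09 CPM in immature cells, 71.9 and 99.6 CPM in intermediate cells and 153 and 173 CPM in myelinating cells. The 4 states did not overlap. The log2 change from immature to myelinating cells was 3.86 ± 0.510 (14.5-fold; edgeR adjusted p = 0.00426). From immature to intermediate cells it was 2.69 ± 0.484 (6.43-fold; edgeR adjusted p = 0.0351), a call that was lost with the plate as a block (0.0646), with 2500 genes per well (0.0668) and with the Ncmap limit at 20 CPM (0.0786). Gjb1 was called lower in cycling than in immature cells (edgeR adjusted p = 0.00205). Its immature level over both plates was 161-fold above a floor of 3 reads in cycling cells. That floor treats reads as independent, so it sets no lower limit on the fold. The immature level rested on 14 of 228 cells (6.14%) with 5 or more reads, and 5 cells held 62.1% of the reads. For cycling cells, 0 of 57, the exact interval reached 6.27%, which covers the immature share. The call held for the cycling rule of 3 genes. With a rule of 2 genes, which took in more cells, the log2 change was 0.52 (edgeR adjusted p = 0.617), and the calls of Cldn19 and Cdh1 in cycling cells were lost too (edgeR adjusted p = 0.151 and 0.259). Over all genes tested, 51 were called lower with that rule and 179 with the rule of 3 genes.

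Per kilobase of exon, Gjc3 made up 94.0% and Gjb1 4.08% of the 20 connexins in immature cells. In intermediate cells the shares were 87.0% and 12.4%, and in myelinating cells 76.3% and 22.9%. In cycling cells Gjc3 was 88.6%, and Gjc1 (Cx45) took 12% and 7.90% on the 2 plates. Gja1 (Cx43) stayed at 2.43 CPM or less. Only 6 of the 21 other connexin and pannexin genes had enough reads for the test, and none was called by edgeR between immature and myelinating cells (0 with unadjusted p under 0.05 and 0 called by DESeq2).

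Cdh1 stood at 34.3 and 25.9 CPM in immature, 95 and 67.2 CPM in intermediate and 92.1 and 85.1 CPM in myelinating cells. The rise from immature to myelinating cells was 3.84-fold (log2 change 1.94 ± 0.383, edgeR adjusted p = 0.0206). That from immature to intermediate cells was 2.98-fold and missed the threshold (1.57 ± 0.379, edgeR adjusted p = 0.0894). It passed in 4 of 16 alternative fits, DESeq2 among them (adjusted p = 0.00102). Over the 16 fits the adjusted p reached 0.545, with edgeR and without the 5% of wells with the most genes. Cycling cells had 6.14 and 3.88 CPM (5.59-fold lower than immature, log2 change -2.48 ± 0.396, edgeR adjusted p = 0.0161). These cycling values rested on few cells: 3 of 57 had 5 or more reads and 1 cell held 69.3% of the reads. Leaving out the 5% of wells with the most genes ended the call for myelinating cells (edgeR adjusted p = 0.274) and that for cycling cells (0.116). The first was also lost with a cycling rule of 2 genes (0.112) and the second with 2500 genes per well (0.0506).

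Cdh2 (N-cadherin) of the Schwann cell lineage went from 31.6 and 23.6 CPM in cycling cells and 10.8 and 12.6 CPM in immature cells to 1.15 and 2.20 CPM in myelinating cells, without passing the test (myelinating against immature, edgeR adjusted p = 0.220). Of the sum of Cdh1, Cdh2 and Cdh19 per kilobase of exon, Cdh1 was 4.26% in cycling, 18% in immature, 66.7% in intermediate and 71.6% in myelinating cells. Cdh19, which marks Schwann cell precursors, was 82.6%, 78.2%, 31.8% and 27.7% in the same order. By plate, Cdh1 was 5.90% and 2.63% in cycling, 22.2% and 13.8% in immature, 79% and 54.5% in intermediate and 75.8% and 67.3% in myelinating cells, so that on plate 1 its share was highest in intermediate cells. Of 16 other cadherin and adherens junction genes tested none was called between immature and myelinating cells with edgeR. Of these 16, 4 had an unadjusted edgeR p under 0.05 and 4 were called by DESeq2, all of them lower. Among all 13904 genes tested, 2267 had an unadjusted edgeR p under 0.05 in this comparison, in either direction. DESeq2 called 885 of 13624 genes lower there. Whether the 16 genes differed from these backgrounds was not tested.

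Mpp6 had its highest level in intermediate cells. It stood at 44.4 and 34.7 CPM in immature cells, 378 and 353 CPM in intermediate cells and 274 and 231 CPM in myelinating cells. The rise from immature cells was 10.2-fold to the intermediate state (log2 change 3.35 ± 0.574, edgeR adjusted p = 0.0232) and 8.32-fold to the myelinating state (3.06 ± 0.567, edgeR adjusted p = 0.0155). Intermediate cells lay above myelinating cells on both plates, but this difference did not pass (log2 change -0.29 ± 0.524, edgeR adjusted p = 0.982). Both calls were lost with a cycling rule of 5 genes, although the log2 changes were 3.39 and 3.10 (edgeR adjusted p = 0.126 and 0.0952). Cycling cells differed between plates, with 9.71 and 41.7 CPM.

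Epb41l2 (protein 4.1G), which holds Cadm4 and Mpp6 at the incisures, had 127 and 167 CPM in immature, 251 and 331 CPM in intermediate and 507 and 587 CPM in myelinating cells. It rose 4.85-fold from immature to myelinating cells (log2 change 2.28 ± 0.237, edgeR adjusted p = 0.000740). Mpp5 (Pals1), a related guanylate kinase of polarity complexes, did not pass (8.95 and 22.5 CPM in immature and 33.2 and 22 CPM in myelinating cells, edgeR adjusted p = 0.554). Of 21 genes tested from the Cadm family and membrane guanylate kinases, 2 rose (Cadm3 and Epb41l2) and 1 fell (Cadm1) from immature to myelinating cells, and the median log2 change was -0.04.

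**Figure D2:**
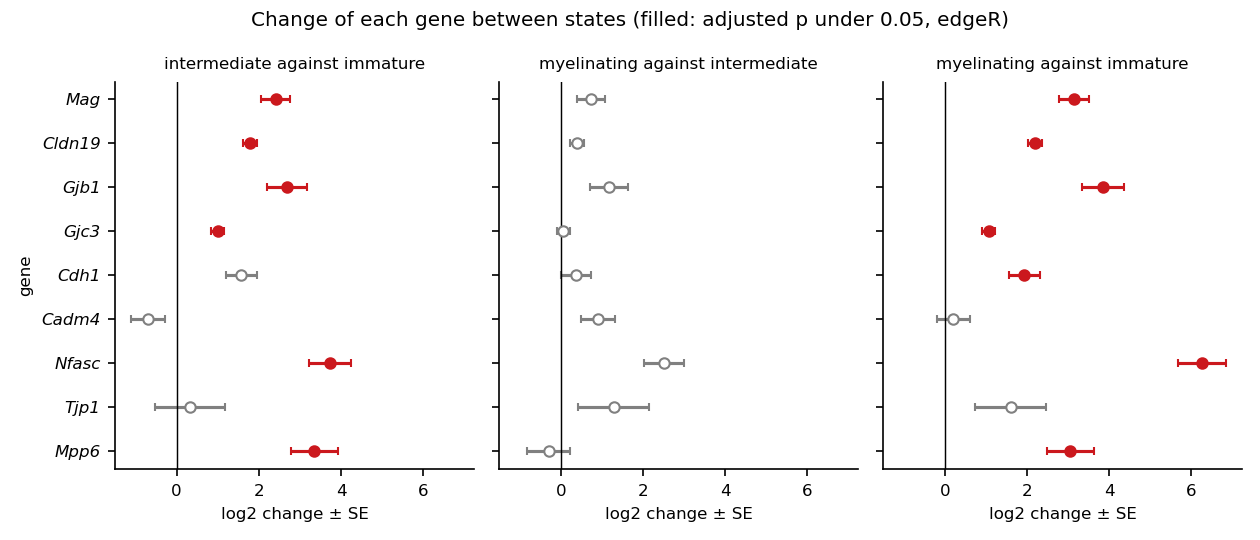
Fitted log2 change ± SE of each gene (rows) in 3 comparisons of states, n = 2 plates per state, with filled red points for edgeR adjusted p under 0.05. The first and last panels show 6 and 7 filled points, the middle panel none, and Nfasc has the largest change in each panel; the cycling comparison is left out because Gjb1 had no reads there.

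The levels rested on different shares of cells. In myelinating cells Mag and Gjc3 had 5 or more reads in 100% of 221 cells (exact 95% interval 98.3 to 100%) and Cldn19 in 99.5%. Mpp6 was present in 87.8%, Gjb1 in 79.6% (73.7 to 84.7%), Nfasc in 76.0% (69.8 to 81.5%) and Cadm4 in 72.9%. Cdh1 was present in 55.7% (48.8 to 62.3%) and Tjp1 in 33.9% (27.7 to 40.6%). The intervals cover counting error only, since cells of a plate share animals and reads without molecular identifiers are not independent molecules.

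In immature cells the same genes split. Gjc3 was present in 90.8% of the 228 cells, Cadm4 in 53.9%, Cldn19 in 49.6% and Mag in 44.3%, whereas Mpp6 was present in 14.5%, Cdh1 and Tjp1 in 9.65% each, Gjb1 in 6.14% and Nfasc in 3.07%. The median immature cell thus had 0 CPM of Mag while the upper quartile was 320 CPM. In intermediate cells the shares were 88.6% for Mag, 97.3% for Cldn19, 84.6% for Mpp6, 47.0% for Cdh1, 42.3% for Gjb1 and 16.8% for Nfasc. After thinning to 100000 reads, which kept 218 immature, 141 intermediate and 219 myelinating cells, the shares in immature, intermediate and myelinating cells were 5.50%, 41.8% and 71.7% for Gjb1, 1.83%, 13.5% and 58.0% for Nfasc, and 12.4%, 86.5% and 80.8% for Mpp6. For Cadm4 thinning turned the order: 33.0%, 24.1% and 23.3%, while the unthinned share was highest in myelinating cells, the deepest. The thinned cells had a median of 2 or 3 of the 9 genes in the cycling and immature states, 5 in the intermediate and 6 in the myelinating state on either plate, and 2 cells, both myelinating, had all 9.

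**Figure D3:**
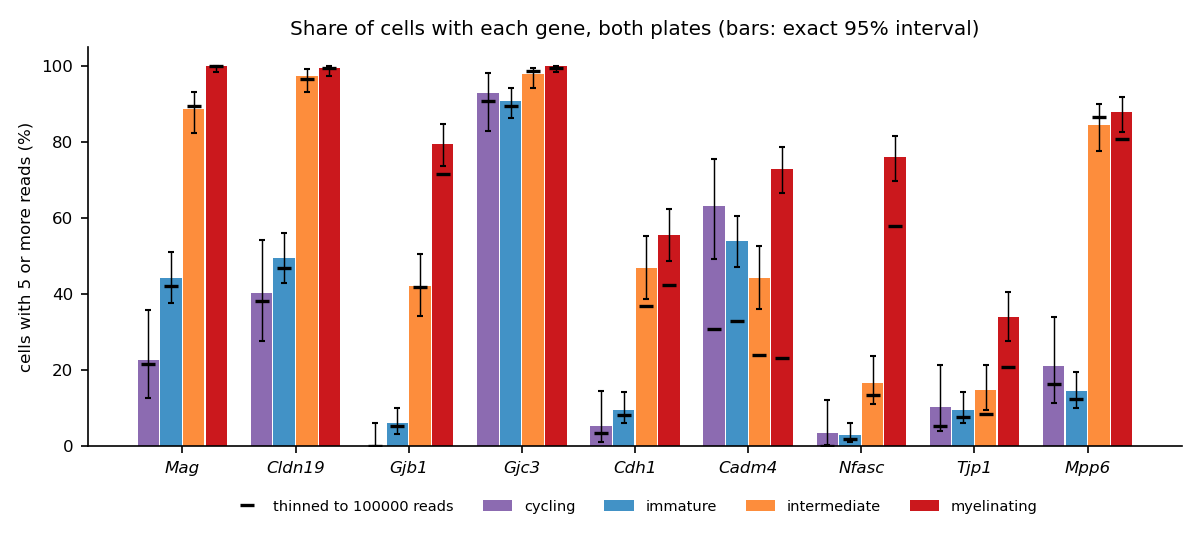
Percent of cells with 5 or more reads of each gene in the 4 states (bars, both plates together, with exact 95% intervals) and the same share after thinning each cell to 100000 reads (black dashes). Gjc3 is near the top in every state, Mag, Cldn19 and Mpp6 step up at the intermediate state, and Nfasc reaches 76.0% in myelinating cells against 16.8% in intermediate cells; for Cadm4 the thinned shares lie between 23.3% and 33.0%.

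Intermediate cells spanned a wide range of Pmp22, from 440 to 29331 CPM on plate 1 and from 344 to 29896 CPM on plate 2. They were ordered by Pmp22 and divided into 3 groups of equal size within each plate (23 to 27 cells), as a description without a test. Cldn19 went from 802 to 1185 and 1436 CPM on plate 1 and from 816 to 1169 and 1357 CPM on plate 2. Mag went from 682 to 1253 and 1259 CPM and from 494 to 1035 and 1548 CPM. Both were already above the immature mean (362 CPM for Cldn19, 218 CPM for Mag) in the group with the least Pmp22.

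Mpp6 had similar levels in the 3 groups of plate 1, at 365, 376 and 390 CPM, and had 277, 354 and 424 CPM on plate 2. Gjc3 went from 1237 to 1884 and 2039 CPM and from 1018 to 1577 and 1596 CPM. Nfasc was at 0.205 CPM in the first group of plate 1, then at 11.7 and 41.9 CPM, and went from 10.2 to 14.6 and 46.6 CPM on plate 2. Gjb1 differed between plates: 68.4, 91 and 59.2 CPM on plate 1 and 59.0, 104 and 135 CPM on plate 2. Cells just inside and outside the Pmp22 limit were compared for Nfasc, which had 50.9 and 59.2 CPM between 20000 and 30000 CPM of Pmp22 and 96.6 and 139 CPM between 30000 and 40000. At the Ncmap limit, the 54 cells with some Ncmap but under 10 CPM had 68.2 and 167 CPM of Mag and 23.4 and 56.6 CPM of Mpp6, and only 8 cells lay between 10 and 100 CPM of Ncmap. The 42 cells between 100 and 1000 CPM of Ncmap had 1213 and 730 CPM of Mag and 382 and 360 CPM of Mpp6.

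**Figure D4:**
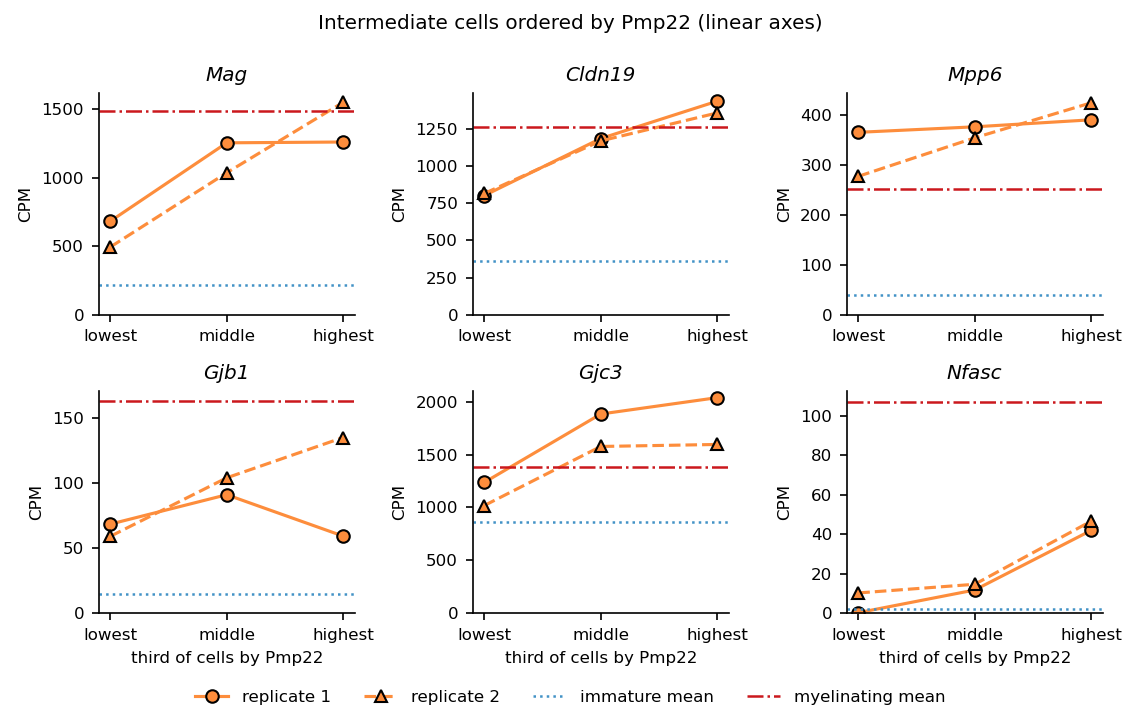
CPM of 6 of the genes in intermediate cells ordered by Pmp22 into 3 groups of equal size per plate (solid line and circles, replicate 1; dashed line and triangles, replicate 2), with the immature and myelinating means as dotted and dash-dotted lines. Mpp6 lies above its myelinating mean of 252 CPM in every group, while Nfasc reaches at most 46.6 CPM against a myelinating mean of 107 CPM.

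Compared per kilobase of exon, the order of the 9 genes shifted with the state. In immature cells Gjc3 (198 RPKM), Cldn19 (85.0 RPKM) and Mag (53.5 RPKM) came first, followed by Cadm4 (21.7 RPKM), and Nfasc came last with 0.129 RPKM. Gjb1, Cdh1 and Mpp6, at 8.58 ± 5.43, 6.58 ± 1.30 and 6.33 ± 1.10 RPKM (SD, n = 2 plates), did not differ beyond their spread. In myelinating cells Mag led with 365 ± 1.43 RPKM, then Gjc3 with 318 ± 7.15 and Cldn19 with 297 ± 21.7 RPKM, the last 2 of which lay within their spread. Gjb1 (95.5 RPKM) passed Mpp6 (40.3 RPKM), Cdh1 and Cadm4 were level at 19.4 and 19.3 RPKM, and Nfasc (7.56 RPKM) and Tjp1 (3.79 RPKM) came last. Lengths are of all merged exons of a gene, which for Nfasc, with 14145 bases, exceeds any single transcript.

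Over all 655 cells, Pearson correlations of log2(CPM + 10) between pairs of the 9 genes ranged from -0.11 to 0.62 with a median of 0.24. The closest pairs were Mag with Cldn19 (0.62) and Mpp6 with Mag and with Cldn19 (0.57 each). Within the states the median of the 36 pairs was 0.01 to 0.08, and the highest value was 0.45, for Mag with Cldn19 in intermediate cells. Gjb1 had 0 reads in the 57 cycling cells, so its pairs have no defined correlation there and entered that median as 0.00. These values are descriptions, since the cells share plates, animals and depth. Among 3493 genes with a mean of 50 CPM or more, those most like Mag were Ncmap (0.74), Emid1 (0.74) and Pmp22 (0.73). For Mpp6 they were Ncmap (0.66), Emid1 (0.64) and Csrp2 (0.62), for Cldn19 Emid1 (0.70), Prx (0.69), a scaffold of the outer sheath, and Cuedc2 (0.69), and for Gjc3 Cuedc2 (0.52), Emid1 (0.45) and Mbp (0.43). Ncmap (0.62) and Sncg (0.61) were among the closest to Gjb1, Pmp22 (0.60) and Ecscr (0.59) to Nfasc, and Emid1 (0.45) and Slc36a2 (0.43) to Cdh1. Ncmap and Pmp22 set the states. For Cadm4 and Tjp1 no gene exceeded 0.21 and 0.27, which in such sparse counts is no finding.

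Genes listed for nodes and for other non-compact membranes were set beside the 9. Of 10 tested genes of nodes and paranodes, 3 rose (Gldn, Sptan1 and Ank2) and 2 fell (Chl1 and Ank3) from immature to myelinating cells. Gldn, gliomedin, which Schwann cell microvilli present to axonal neurofascin, was at 0.0185 and 3.27 CPM in immature, 31.1 and 47.1 CPM in intermediate and 164 and 175 CPM in myelinating cells (edgeR adjusted p = 0.0425). Nfasc had the same order of immature, intermediate and myelinating levels. Nrcam, which acts with gliomedin, had 23.6 and 11.4 CPM in immature and 71.2 and 66.5 CPM in myelinating cells, without passing (edgeR adjusted p = 0.193). Chl1, a close relative of the L1 adhesion molecule, was at 54.2 and 51.5 CPM in immature and 0.0406 and 0.103 CPM in myelinating cells (edgeR adjusted p = 0.0253). Sptan1, the spectrin of the paranodal skeleton, rose 2.50-fold (73.4 and 76.4 to 153 and 134 CPM, edgeR adjusted p = 0.0132), and Ank3 fell by 1.09 ± 0.255 on the log2 scale (162 and 180 to 69.3 and 53.5 CPM, edgeR adjusted p = 0.0435). Ank2, an ankyrin, had 2.13 and 6.11 CPM in immature and 41 and 38.4 CPM in myelinating cells (edgeR adjusted p = 0.0315). Cntnap1, the axonal partner at the paranode, stayed at 0.667 CPM or less.

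Of 15 other genes tested from a list made for non-compact myelin, 6 rose and none fell from immature to myelinating cells. With edgeR 0 were lower at an unadjusted p under 0.05, and with DESeq2 0 were called lower. The list was made by name, and where these proteins lie in the sheath was not examined. Cd9, a tetraspanin, rose in both steps, from 1987 and 1831 CPM in immature to 3469 and 2965 CPM in intermediate and 11301 and 12141 CPM in myelinating cells (edgeR adjusted p = 0.00846 and 0.000189). Mal, a lipid raft protein, did likewise, with 1483 and 1553, 2623 and 2326, and 5333 and 5121 CPM (edgeR adjusted p = 0.0163 and 0.00292). For both genes the second step was the larger, with log2 changes of 0.89 and then 2.11 for Cd9 and of 0.84 and then 1.32 for Mal; the difference between the steps was not tested. Cd82, another tetraspanin, rose 3.35-fold over both steps together (edgeR adjusted p = 0.00305). Cnp, the enzyme of cytoplasmic myelin channels, and Plekhb1 rose 2.77-fold and 2.05-fold (edgeR adjusted p = 0.00236 and 0.00130), and Mobp went from a mean of 0.00927 to 20.7 CPM (edgeR adjusted p = 0.0220). Marveld3, Ank2, Cnp, Plekhb1, Mobp, Cdh19, Gjc1 and Cldn5 were named after their values were seen.

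**Figure D5:**
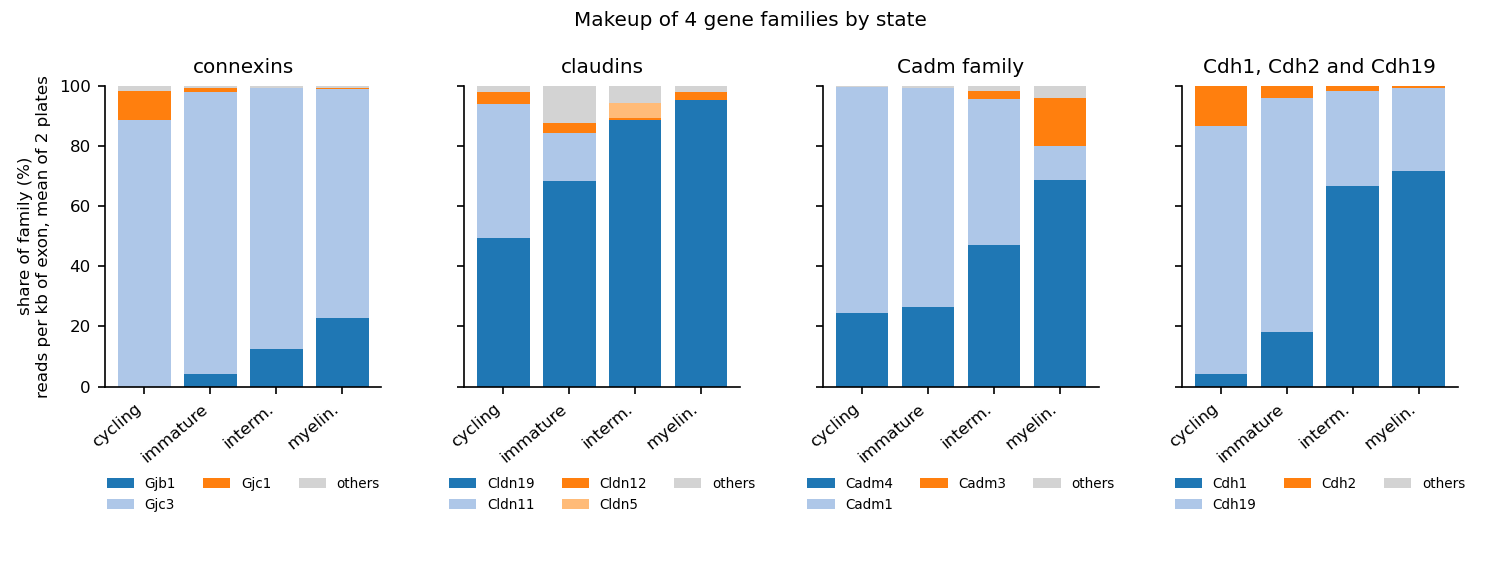
Makeup of 4 gene families by state as percent of the reads per kilobase of exon of each family, mean of 2 plates. The families are all connexins (20 genes), all claudins (33 genes), the 4 Cadm genes, and Cdh1, Cdh2 and Cdh19. Darkest blue is Gjb1, Cldn19, Cadm4 or Cdh1, and light blue among the connexins is Gjc3, also described here. Other colours are relatives named in the legends, and grey is the rest of each family. The mean shares of Gjb1, Cldn19, Cadm4 and Cdh1 are highest in myelinating cells, at 22.9%, 95.3%, 68.7% and 71.6%, but on plate 1 that of Cdh1 was 79% in intermediate and 75.8% in myelinating cells, and that of Cadm4 was 30.8% in cycling and 27.3% in immature cells.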

How the data were processed

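Single eYFP-positive cells were sorted into 2 plates and read with Smart-Seq2. Per the labels, the authors aligned reads with STAR 2.6.1c to GRCm38.p5 and counted them with featureCounts; the deposited table holds whole-number read counts per Ensembl gene, not normalized. Symbols and exon lengths were taken from GENCODE vM21 (25664 of 25700 genes matched). The study's methods name another STAR version and a human build, but the identifiers are of mouse. Only gene sums are known, so isoforms are not resolved. Doublets were not called; leaving out the 5% of wells with the most genes is an alternative.

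Retained wells held from 3306 to 2495101 reads. Counts were summed per plate and state and fitted with edgeR 4.0.16 (R 4.3.3): filterByExpr, TMM, quasi-likelihood test, all 8 sums in 1 fit without a plate term, Benjamini-Hochberg over 13904 genes. SE is the log2 change divided by the square root of F. Alternatives were DESeq2 1.42.0, other scalings, filters, depths, limits of the states, and the plate as a replicate block. The number of a plate pairs its sums, which come from the same pooled animals; the deviations of any 2 states on a plate from their means correlated by -0.0148 to 0.207 over 1990 genes.

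The 9 genes, the lists of related genes and the tests were chosen with earlier results of these data known. Related genes were named if among the 3 with the largest change per list and direction (called in myelinating against immature cells, mean of 20 CPM, same sign on both plates), plus fixed family relatives. Genes like a member were the 3 with the highest correlation. A few genes that these rules name are not reported here. Python 3.11.15, numpy 2.4.6, pandas 2.3.3, scipy 1.17.1 and matplotlib 3.10.9 were used.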

Additional observations from a re-analysis of the deposited data

Results flagged for a closer look

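Wells outside the comparisons also held reads of the 9 genes. Away from the corners, wells with under 1500 detected genes had a summed level of the 9 genes of 2649 CPM on plate 1 (55 wells, 17904 reads of these genes). On plate 2 it was 1097 CPM (50 wells, 571 reads). The 4 corner wells of each plate had 350 and 376 CPM, from only 35 and 22 reads of the 9 genes. All these wells are in no comparison, and what they held was not tested. No group of values was tested for an outlying sample, since each state has 2 plates.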

How the results depend on the processing

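Of 576 log2 changes of the 9 genes refitted under 16 alternatives, 549 kept their side of the threshold, 12 lost a call, 13 gained one, 1 turned sign by more than its SE without a call (Mpp6 in cycling against immature cells, -0.51 to 0.48 with a cycling rule of 2 genes) and 1 reversed: Gjb1 in the same comparison, at 0.52 with the same rule. Among the 549, uncalled changes also turned sign within their SE: Tjp1 in intermediate against immature cells (-0.32 with the Pmp22 limit at 20000 CPM), Cadm4 in myelinating against immature cells (-0.19 in thinned wells), Gjc3 in myelinating against intermediate cells (-0.01 with the Pmp22 limit at 40000 CPM), and Cadm4 in cycling against immature cells (up to 0.06, with DESeq2 and with RLE factors). With a cycling rule of 2 genes 0 of the 9 genes were called in the cycling comparison (3 as reported). Over all genes that rule called 151 higher and 51 lower, against 180 and 179 as reported. In myelinating against intermediate cells, where none was called, 1 gene was called with DESeq2, without a filter on low counts, in thinned wells and with the Pmp22 limit at 20000 CPM (Nfasc in each), and 1 (Mag, edgeR adjusted p = 0.0423) with the cycling rule of 2 genes. The number called in the other comparisons stayed within 1.5 times. The cause of these changes was not tested. With the plate as a replicate block, Gjb1 lost its call in intermediate against immature cells (log2 change 2.76, edgeR adjusted p = 0.0646), and no other call of the 9 genes changed. Leaving out replicate 1 or replicate 2 leaves 1 plate per state and no test. Of these 72 log2 ratios, 62 moved by no more than the SD between the 2 plates. That SD is set by the same 2 values, so the count does not measure stability. In cycling against immature cells Mpp6 was at 0.38 without replicate 1 and at -2.05 without replicate 2. Cadm4 was at -0.52 and 0.39 there. Tjp1 in immature cells rests on plate 2, without which its level was 4.36 CPM. Over all genes edgeR called 180 higher and 179 lower, 137 and 141, 50 and 59, and 362 and 353 in the comparisons of cycling with immature, intermediate with immature, myelinating with intermediate and myelinating with immature cells; DESeq2 called 742 and 850, 472 and 564, 373 and 352, and 818 and 885, and edgeR without a filter 371 and 477, 322 and 370, 206 and 229, and 593 and 604. Shares at a minimum of 1 or 10 reads left the exact interval in 12 of 72 cases. With the mean of single-cell CPM in place of the CPM of summed reads, 11 of 36 levels moved by more than the SD between the plates. With 2 plates per state, a log2 change of 1.61 with an SE of 0.866 (Tjp1) was not detectable.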
